A study of Homo sapiens with 18 samples.

Results

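The genes FOXA1, HOXB13, GATA2, GATA3, GRHL1, NR3C1, NCOA1 and NCOA3 were followed in 3 human prostate cancer cell lines after knockdown of EMD, the gene of emerin, a protein of the inner nuclear membrane. These 8 genes were chosen by symbol, as lineage transcription factors, a steroid receptor and coactivators that act with steroid receptors in prostate cells. They are 8 of 41440 genes listed in at least 1 of the 3 deposited tables and 8 of 18445 listed in all 3. RNA was sequenced from 18 libraries in 6 groups of 3: C4-2B with EMD siRNA and with scrambled control siRNA, 22Rv1 with EMD siRNA and with control siRNA, and DU145 labelled EMD knockdown and labelled control. C4-2B descends from LNCaP and grows without androgen, 22Rv1 was made from a xenograft that had relapsed after castration, and DU145 was made from a metastasis in the brain. All groups received a lipid transfection mix that was taken off after 24 hours, per the labels' protocols, and the time of harvest is not given. The names of the DU145 knockdown libraries contain shEMD, a prefix common for short hairpin RNA, whereas the protocol names siRNA for every line, so the reagent used in DU145 is not settled. The medium was DMEM for DU145 and RPMI-1640 for the other lines. Each line is a single established line with its own table and batch label, so line, batch, table and medium cannot be told apart. The labels do not say whether the libraries of a group came from separate cultures, and the p-values below measure only the spread between these samples.

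FOXA1 is a pioneer factor: it binds closed chromatin and opens it for other factors, among them steroid receptors. HOXB13 is the homeobox factor that marks prostate lineage, GATA2 and GATA3 are zinc-finger factors that bind GATA motifs, and GRHL1 is a grainyhead-like factor of epithelial cells. NR3C1 encodes the glucocorticoid receptor, which is held by chaperones until a ligand binds and then acts on DNA. NCOA1 and NCOA3 are p160 coactivators that are recruited by liganded nuclear receptors and bring in histone acetyltransferases such as CREBBP.

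A C4-2B library held 14722733 to 25112148 reads in genes, a 22Rv1 library 15602874 to 30788078 and a DU145 library 21024352 to 43311727. EMD itself was at 11.9% of its control level in C4-2B, 30.1% in 22Rv1 and 10.8% in DU145, and knockdown and control libraries did not overlap in any line. Beyond EMD, the knockdown arms differed widely from the controls: 41.7% of 15801 tested genes passed the threshold in C4-2B, 67.8% of 16656 in 22Rv1 and 47.6% of 19377 in DU145 (edgeR quasi-likelihood test, Benjamini-Hochberg adjusted p under 0.05, adjusted over all genes tested in the line). In C4-2B, 46.6% of the called genes were higher in the knockdown libraries with TMM scaling and 57% with scaling to library totals. In 22Rv1 those shares were 49.5% and 42%, and in DU145 50.5% and 57.1%. The p-values are edgeR's throughout unless another tool is named, and a gene is said to rise or fall only where it passed. A list of 12 luminal prostate markers, all of them in each table, summed to 6740 to 6760 CPM (counts scaled to library size) in knockdown and 6620 to 6740 CPM in control libraries of C4-2B. Its sum was 1990 to 2020 CPM in knockdown and 2610 to 2690 CPM in control libraries of 22Rv1, and 1070 to 1100 against 2040 to 2150 CPM in DU145. Most of the DU145 sum was the keratins KRT8 and KRT18. KRT8 lay at 397 to 415 CPM in DU145 knockdown and 1180 to 1250 CPM in control libraries, and KRT18 at 541 to 544 and 737 to 781 CPM. EPCAM was higher in DU145 knockdown libraries (102 to 113 against 70.1 to 72.9 CPM). Of the 9 luminal markers tested in DU145, 1 rose and 4 fell. In 22Rv1, 3 of 11 tested rose and 6 fell. KRT8 lay there at 533 to 551 CPM in knockdown and 880 to 962 CPM in control libraries. The near-level sum in C4-2B holds genes that moved apart, since 5 of the 12 rose and 4 fell there. The kallikrein KLK3, which marks secretory luminal cells, lay between 937 and 1010 CPM in C4-2B knockdown libraries, with 1480 CPM in controls, while FOLH1, of the same list, lay between 1710 and 1740 CPM in knockdown and 1250 and 1270 CPM in control libraries of C4-2B. KLK3 lay near 0 in DU145, at 0.206 to 0.79 CPM in knockdown and 0.393 to 0.761 CPM in control libraries. Summed blood markers were lower in knockdown libraries of every line, at 3.22 to 3.67 against 4.9 to 6.7 CPM in C4-2B (4 of 9 genes in the table), 3.22 to 3.93 against 15.6 to 18.1 CPM in 22Rv1 (6 of 9) and 30.5 to 32.3 against 92.4 to 94.9 CPM in DU145 (9 of 9). In DU145 nearly all of that sum was CD68, at 28.9 to 30.2 CPM in knockdown and 91.5 to 93.8 CPM in control libraries, while ITGAM (69 against 22 reads), CD14 (22 against 12) and LYZ (27 against 18) had more reads in the knockdown arm. In 22Rv1 most of it was HBA1, at 1.61 to 2.36 CPM in knockdown and 12.1 to 12.7 CPM in control libraries. Basal prostate markers summed to 16.6 to 21.6 CPM in knockdown and 22.2 to 24.8 CPM in control libraries of C4-2B (4 of 7 genes), to 36.4 to 39 against 78.8 to 88.9 CPM in 22Rv1 (6 of 7) and to 790 to 979 against 929 to 1040 CPM in DU145 (7 of 7). Nearly all of the DU145 basal sum was DST, at 778 to 966 CPM in knockdown and 875 to 990 CPM in control libraries. Of the 4 basal markers tested in DU145, 1 rose and 2 fell. In 22Rv1, 0 of 4 tested rose and 3 fell, and NGFR lay at 2.38 to 3.49 CPM in knockdown and 32.8 to 36.2 CPM in control libraries. Fibroblast and endothelial markers summed to 14.5 to 16.1 against 21.5 to 24.7 CPM in C4-2B (4 of 10), to 0.786 to 1.09 against 3.02 to 3.61 CPM in 22Rv1 (8 of 10) and to 6.17 to 8.09 against 3.62 to 6.23 CPM in DU145 (10 of 10), knockdown given first. Most of the C4-2B sum was VWF, at 12.5 to 14.6 CPM in knockdown and 19.6 to 22.2 CPM in control libraries. Markers without a read in an arm included CD14 in C4-2B knockdown libraries, TRPM8, KRT5, KDR and ITGAM in 22Rv1 knockdown libraries, HBB in 22Rv1 controls, CD3E in DU145 knockdown libraries, and KRT5 and HBA1 in DU145 controls. The part of these marker shifts in the results below was not tested. Each library came from a single cell line, so the list names describe genes and do not mean that such cells were present. Fewer cells that express a gene and less RNA per cell cannot be told apart in such bulk libraries.

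After EMD knockdown, FOXA1 and GATA2 rose in all 3 lines, by a small step in C4-2B and 22Rv1, and GATA2 by 1.59-fold in DU145. With library totals the FOXA1 call in 22Rv1 was lost (adjusted p = 0.12). The coactivator NCOA1 rose 2.36-fold in 22Rv1 and fell in DU145 (adjusted p = 0.0609 without control replicate 3). NR3C1 fell in 22Rv1 and rose in DU145 (adjusted p = 0.12 without knockdown replicate 2). GRHL1 also fell in 22Rv1 (adjusted p = 0.151 without knockdown replicate 1) and rose in DU145, and GATA3 fell in 22Rv1. In C4-2B, 7 of the 8 genes had enough reads to be tested, of which 2 rose and 2 fell, against 41.7% of all tested genes called there. Without control replicate 2 or without knockdown replicate 3, only 2 of the 7 were called in C4-2B, and the calls lost were those of GATA2 and NCOA1. In 22Rv1 all 8 were tested, 4 rose and 3 fell, against a background of 67.8%. In DU145, 7 were tested, 4 rose and 1 fell, against 47.6%. With so large a share of all genes called, these counts do not set the 8 genes apart.

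**Figure D1:**
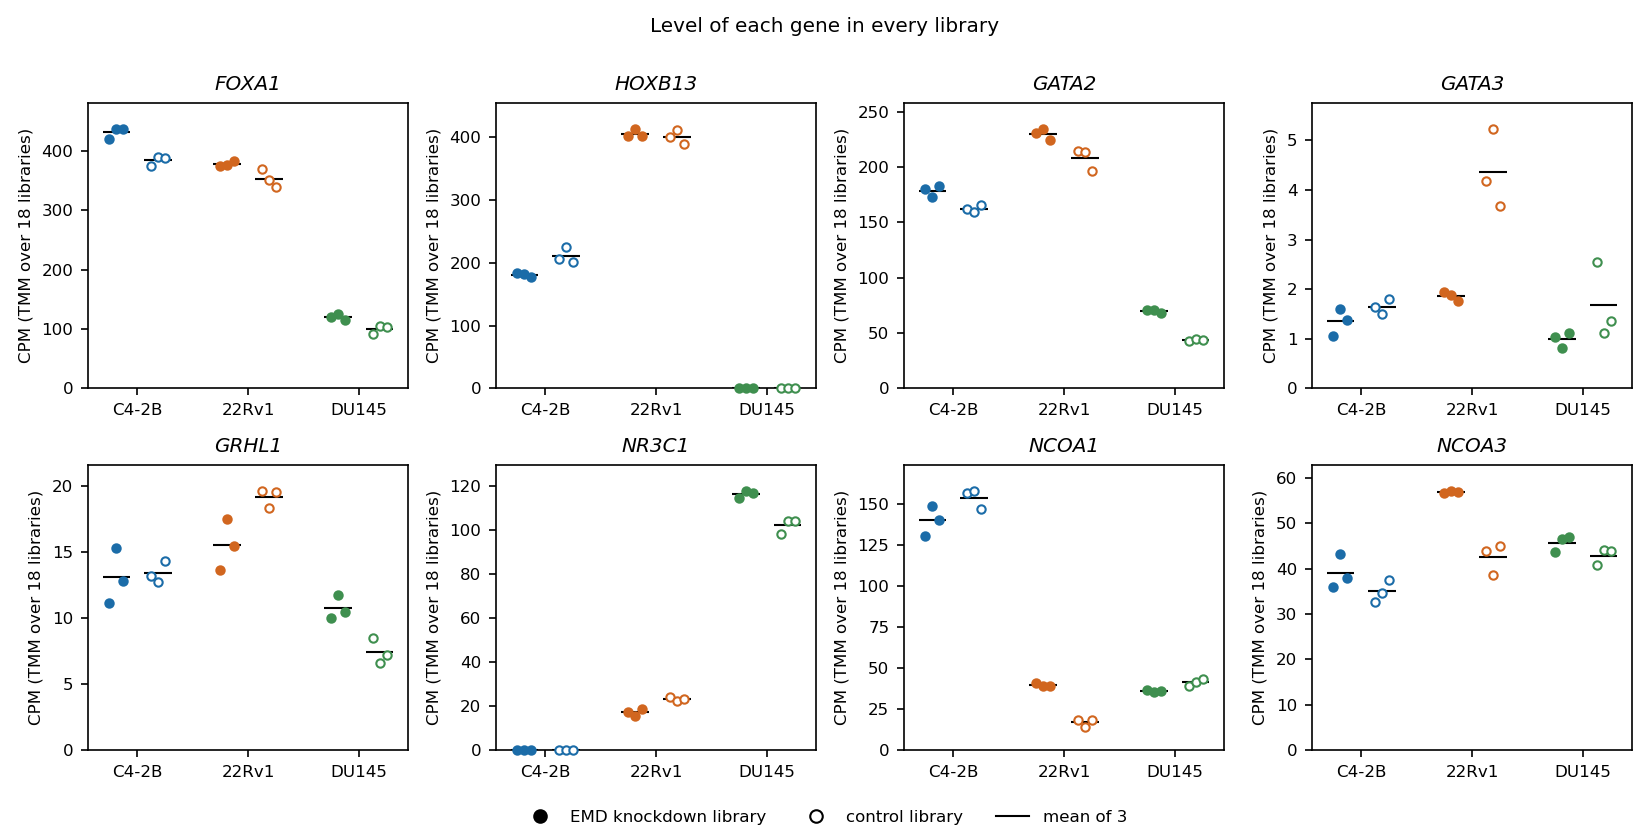
Level of each gene in every library, in CPM scaled by TMM over all 18 libraries (vertical axes, starting at 0), with EMD knockdown libraries as filled points left of the control libraries as open points in each line, and short lines for the mean of 3. NCOA1 in 22Rv1 and GATA2 in DU145 show knockdown points well above the control points, HOXB13 lies at 0 or next to it in DU145, and NR3C1 lies next to 0 in C4-2B.

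FOXA1 (ENSG00000129514, GRCh38 chromosome 14, 37589984 to 37596059, minus strand) had 426, 441 and 444 CPM in the C4-2B knockdown libraries, against 381, 395 and 393 CPM in the C4-2B controls. All 3 knockdown libraries were above all 3 controls, with means of 437 ± 10.0 and 390 ± 7.65 CPM (SD, n = 3 each). The log2 fold change was 0.17 ± 0.04 (SE, adjusted p = 0.000645). In 22Rv1, FOXA1 had 384, 393 and 397 CPM in knockdown libraries, against 369, 356 and 338 CPM in controls. The arms again did not overlap, and the change of 0.14 ± 0.04 (adjusted p = 0.00165) stood next to a median of 0.11 over the 508 genes of 22Rv1 at or above 300 CPM. With library totals in place of TMM the 22Rv1 change was 0.06 and did not pass (adjusted p = 0.12). In DU145, FOXA1 had 109, 118 and 104 CPM in knockdown libraries, against 85.8, 95.6 and 95.2 CPM in controls. It rose there by 0.25 ± 0.05 on the log2 scale (adjusted p = 0.000348). TTC6, an annotated gene on the opposite strand that overlaps FOXA1, passed in none of the 3 lines (adjusted p = 0.141 in C4-2B, 0.640 in 22Rv1 and 0.0911 in DU145), and whether the counting used strand is not stated.

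GATA2 (ENSG00000179348, chromosome 3, 128479427 to 128493185, minus strand) had 182, 174 and 186 CPM in C4-2B knockdown libraries, against 165, 162 and 168 CPM in C4-2B controls. The step of 0.13 ± 0.04 (adjusted p = 0.0104) was small, and it did not pass without control replicate 2 (adjusted p = 0.0615) or without knockdown replicate 3 (adjusted p = 0.0595). In 22Rv1 the knockdown libraries had 236, 244 and 233 CPM and the controls 214, 217 and 195 CPM. The arms stood apart, and the log2 fold change of 0.19 ± 0.04 (adjusted p = 0.000403) lay beside a median of 0.16 over the 1952 genes of 22Rv1 between 100 and 300 CPM. In DU145 the knockdown libraries had 64.3, 66.3 and 61.6 CPM, against 40.0, 40.5 and 40.0 CPM in the controls. Here GATA2 rose 1.59-fold (log2 0.67 ± 0.05, adjusted p = 1.56e-11). The antisense transcript GATA2-AS1, which overlaps GATA2 on the other strand, also rose in 22Rv1 (0.49, adjusted p = 2.33e-08) and in DU145 (0.49, adjusted p = 2.38e-05). In C4-2B its value was 0.14 (adjusted p = 0.0535). Without strand, reads of GATA2 and GATA2-AS1 cannot be told apart where they overlap.

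FOXA1 and GATA2 are thus 2 of the genes that rose in all 3 lines, which were 2.12% of the 13078 genes tested in all 3. That share covers genes of every level. In 22Rv1, 56.2% of genes between 100 and 300 CPM and 51.4% at or above 300 CPM rose. The FOXA1 call in 22Rv1 and the GATA2 call in C4-2B were lost under some of the alternatives given above. The stretches of sequence before the start sites of FOXA1 and GATA2 are shown because both were called as risen in every line. They were taken from RefSeq (GRCh38.p14), which matched 7 of the 8 genes, and bases of annotated exons were left out. Capitals mark letters that match a searched motif on either strand. The forkhead motif was searched for as TGTTTGC, or with the other usual letter as TGTTTAC. The GATA motif was searched for as AGATAA, or with another first letter as TGATAA. The GC box was searched for as GGGCGG, the CCAAT box by its name and the TATA box as TATAAA. The FOXA1 stretch is chr14:37595349-37595499 on the minus strand, 151 bases that end before an exon, inside the span that GENCODE 29 gives the gene. The GATA2 stretch is chr3:128493202-128493451 on the minus strand, 250 bases before the first of 2 RefSeq starts.
FOXA1: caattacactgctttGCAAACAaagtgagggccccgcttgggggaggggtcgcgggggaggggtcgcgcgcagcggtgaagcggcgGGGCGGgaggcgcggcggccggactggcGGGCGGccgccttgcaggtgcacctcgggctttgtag
GATA2: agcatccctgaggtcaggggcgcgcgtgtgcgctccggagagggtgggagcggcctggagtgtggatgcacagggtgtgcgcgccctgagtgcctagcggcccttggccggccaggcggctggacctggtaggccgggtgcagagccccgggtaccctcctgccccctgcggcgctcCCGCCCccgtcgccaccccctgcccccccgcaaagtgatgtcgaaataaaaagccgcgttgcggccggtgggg
The FOXA1 stretch holds GCAAACA, the reverse complement of TGTTTGC, starting 235 bases before the start site, and 2 GC boxes. TGTTTGC on either strand is found in 2.01% of 35116 RefSeq windows of 151 bases at the same distance, and the GC box in 26.0%. Unlike in the printed stretches, exon bases were not left out of the windows behind these shares and those below. The GATA2 stretch holds 1 GC box, found in 42.6% of 250-base windows, and neither of the GATA nor the forkhead letters, which are found in 9.17% (AGATAA), 6.66% (TGATAA), 3.23% (TGTTTGC) and 2.98% (TGTTTAC) of such windows. A match of letters describes the sequence and is no evidence of binding.

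HOXB13 (ENSG00000159184, chromosome 17, 48724763 to 48729178, minus strand) was the member that fell most clearly in C4-2B. It had 187, 184 and 180 CPM in C4-2B knockdown libraries, against 209, 227 and 205 CPM in controls. All knockdown values lay below all control values, and the log2 fold change was -0.22 ± 0.04 (adjusted p = 0.000203). In 22Rv1 the knockdown libraries had 411, 431 and 417 CPM and the controls 400, 417 and 386 CPM. These arms overlapped and the difference of 0.06 ± 0.04 did not pass (adjusted p = 0.117), although it passed when control replicate 2 was left out (adjusted p = 0.0273). With library totals the value was -0.01. In DU145, HOXB13 had 1, 0 and 0 reads in knockdown libraries and no read in any control, and it was not tested. The 0 reads in DU145 controls allow up to 0.0336 CPM over the 3 libraries together, taking 3 reads as the limit, which covers counting error only.

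GATA3 (ENSG00000107485, chromosome 10, 8045378 to 8075203, plus strand) was, per kilobase of exon, the least abundant of the factors tested in all 3 lines. In 22Rv1 it had 1.99, 1.96 and 1.82 CPM in knockdown libraries, against 4.18, 5.31 and 3.66 CPM in controls. It fell there to 1.92 ± 0.087 CPM in knockdown libraries, against 4.38 ± 0.846 CPM in controls (SD, n = 3 each), a log2 fold change of -1.16 ± 0.21 (adjusted p = 7.35e-05). Genes of 22Rv1 at this level, between 2 and 10 CPM, had a median of -0.33 over 3103 genes. In C4-2B, GATA3 had 1.08, 1.62 and 1.40 CPM in knockdown libraries and 1.65, 1.52 and 1.82 CPM in controls, from 16 to 45 reads a library. The arms overlapped (-0.28 ± 0.38, adjusted p = 0.587). In DU145 the knockdown libraries had 0.934, 0.771 and 1.01 CPM, against 2.38, 1.03 and 1.25 CPM in controls. These did not overlap, and the difference of -0.72 ± 0.31 missed the threshold (adjusted p = 0.0609). The high value of control replicate 1 carries much of it: without that library the difference was -0.32 (adjusted p = 0.429), while without control replicate 2 it passed at -0.95 (adjusted p = 0.0186). It also passed with RLE scaling (adjusted p = 0.0430).

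GRHL1 (ENSG00000134317, chromosome 2, 9951693 to 10002277, plus strand) changed in opposite directions in 22Rv1 and DU145. In 22Rv1 it had 13.9, 18.3 and 16.1 CPM in knockdown libraries, against 19.6, 18.6 and 19.4 CPM in controls. The log2 fold change was -0.27 ± 0.10 (adjusted p = 0.0201), and without knockdown replicate 1, the lowest library, it did not pass (adjusted p = 0.151). In DU145 the knockdown libraries had 9.06, 11.0 and 9.43 CPM, against 7.96, 6.07 and 6.67 CPM in controls. GRHL1 rose there 1.44-fold (0.53 ± 0.10, adjusted p = 0.00014), with no overlap between the arms. C4-2B knockdown libraries had 11.3, 15.5 and 13.0 CPM and C4-2B controls 13.4, 12.9 and 14.5 CPM, which overlap (-0.04 ± 0.13, adjusted p = 0.844).

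NR3C1 (ENSG00000113580, chromosome 5, 143277931 to 143435512, minus strand) was next to absent from C4-2B, where the knockdown libraries had 1, 2 and 2 reads and the controls 0, 1 and 3 reads, too few to test. In 22Rv1 it had 17.9, 16.4 and 19.6 CPM in knockdown libraries, against 24.4, 22.7 and 23.4 CPM in controls. The receptor fell there by 0.39 on the log2 scale (SE 0.08, adjusted p = 0.000378), with the arms apart, while the 3316 genes of 22Rv1 between 10 and 30 CPM had a median of -0.03. In DU145 it had 104, 111 and 106 CPM in knockdown libraries, against 92.2, 95.5 and 96.4 CPM in controls. NR3C1 rose there by 0.17 ± 0.05 (adjusted p = 0.00359), a call that was lost without knockdown replicate 2 (0.14, adjusted p = 0.12).

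**Figure D2:**
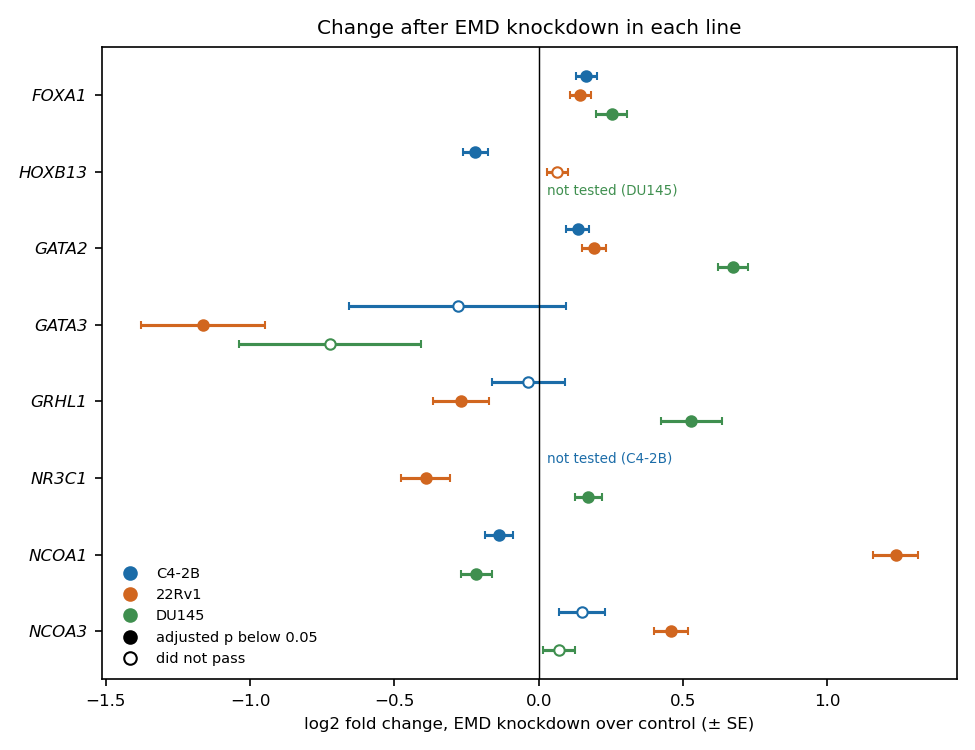
Log2 fold change of EMD knockdown over control (horizontal axis, with SE bars) for each gene in C4-2B, 22Rv1 and DU145, from 3 against 3 libraries a line; filled points passed an adjusted p of 0.05. NCOA1 in 22Rv1 (1.24) and GATA3 in 22Rv1 (-1.16) lie farthest from 0, and FOXA1 and GATA2 lie above 0 in every line.

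Of the coactivators, NCOA1 (ENSG00000084676, chromosome 2, 24491914 to 24770702, plus strand) had the largest fitted change of the 8 genes, though its size was not tested against that of GATA3. In 22Rv1 it had 41.8, 40.6 and 40.8 CPM in knockdown libraries, against 18.7, 14.7 and 18.2 CPM in controls. The mean was 41.1 ± 0.626 CPM in knockdown and 17.2 ± 2.14 CPM in control libraries (SD, n = 3 each), a log2 fold change of 1.24 ± 0.08 (adjusted p = 2.5e-11), beside the median of -0.03 for 22Rv1 genes at its level. In DU145 it went the other way, with 33.2, 33.6 and 32.6 CPM in knockdown libraries, against 36.8, 38.3 and 40.0 CPM in controls. It fell there by 0.22 (SE 0.06, adjusted p = 0.00187), a call that was lost without control replicate 3 (adjusted p = 0.0609). In C4-2B the knockdown libraries had 132, 150 and 142 CPM and the controls 159, 160 and 149 CPM. These arms overlap, and although the value of -0.14 ± 0.05 passed (adjusted p = 0.0238), it did not without control replicate 1 (0.0733), control replicate 2 (0.0921), knockdown replicate 1 (0.126) or knockdown replicate 3 (0.0503), nor with library totals (0.176) or in the fit of 18 libraries (0.0549), all adjusted p-values.

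NCOA3 (ENSG00000124151, chromosome 20, 47501902 to 47656877, plus strand) also rose in 22Rv1. It had 58.0, 59.5 and 58.9 CPM in 22Rv1 knockdown libraries, against 43.8, 39.2 and 44.6 CPM in controls. The rise was 1.37-fold (0.46 ± 0.06, adjusted p = 7.11e-07), and the 4751 genes of 22Rv1 between 30 and 100 CPM had a median of 0.13 on the log2 scale. C4-2B knockdown libraries had 36.4, 43.4 and 38.4 CPM and C4-2B controls 33.2, 35.2 and 38.0 CPM (0.15 ± 0.08, adjusted p = 0.138). DU145 knockdown libraries had 39.5, 43.6 and 42.3 CPM and DU145 controls 38.1, 40.4 and 40.4 CPM (0.07 ± 0.06, adjusted p = 0.321). The arms overlap in both lines, and with library totals both differences passed (adjusted p = 0.0488 in C4-2B and 0.0393 in DU145).

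The stretches before the start sites of NCOA1 and NCOA3 are shown because both coactivators rose in 22Rv1. The printed stretches differ in sequence make-up, and this depends on the NCOA1 window taken. The NCOA1 stretch is chr2:24491004-24491253 on the plus strand, the first of 3 RefSeq windows of that gene, and the NCOA3 stretch is chr20:47501637-47501886 on the plus strand, both from RefSeq (GRCh38.p14) with capitals for the same motifs.
NCOA1: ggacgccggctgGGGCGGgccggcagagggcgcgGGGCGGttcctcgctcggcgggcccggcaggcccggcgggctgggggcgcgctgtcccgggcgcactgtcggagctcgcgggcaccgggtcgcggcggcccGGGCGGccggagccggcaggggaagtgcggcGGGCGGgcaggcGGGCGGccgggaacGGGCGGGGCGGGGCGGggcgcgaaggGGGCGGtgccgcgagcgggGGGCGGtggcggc
NCOA3: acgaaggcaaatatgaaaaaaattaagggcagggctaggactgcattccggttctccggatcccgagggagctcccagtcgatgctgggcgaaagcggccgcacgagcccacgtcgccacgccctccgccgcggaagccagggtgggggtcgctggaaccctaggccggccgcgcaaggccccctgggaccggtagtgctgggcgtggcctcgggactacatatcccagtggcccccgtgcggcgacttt
The NCOA1 stretch holds 10 GC boxes on its printed strand, of which 3 in a row overlap by 1 base, and 46 CG dinucleotides, and 87.2% of its bases are G or C. The NCOA3 stretch holds none of the 7 motifs searched and 25 CG dinucleotides, with 66.4% G or C. The GC box is found in 42.6% of 250-base windows, and both stretches lack TATAAA and CCAAT, found in 10.7% and 32.0% of windows.

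The control libraries of the 3 lines differed for most of the 8 genes. Levels across lines are CPM over the 18 libraries, as mean ± SD of 3 control libraries, and the tests are contrasts in 1 fit of all 18. C4-2B and 22Rv1 held FOXA1 at 384 ± 7.87 and 354 ± 14.8 CPM, GATA2 at 162 ± 2.89 and 208 ± 10.1 CPM, and HOXB13 at 211 ± 12.0 and 400 ± 11.2 CPM. DU145 held FOXA1 at 99.7 ± 7.08 CPM, GATA2 at 43.4 ± 0.722 CPM and HOXB13 at 0 reads. FOXA1 was thus 3.85-fold higher in C4-2B than in DU145 (log2 1.94 ± 0.05, adjusted p = 2.53e-28) and 3.54-fold higher in 22Rv1 than in DU145 (1.82 ± 0.05, adjusted p = 1.53e-27). HOXB13 was at least 6250-fold higher in C4-2B (12557 reads against 0) and at least 11800-fold higher in 22Rv1 (30621 reads against 0) than in DU145, taking 3 reads over the group as the limit for 0. GATA2 was 3.74-fold higher in C4-2B than in DU145 (1.90 ± 0.04, adjusted p = 2.33e-28) and 4.78-fold higher in 22Rv1 than in DU145 (2.26 ± 0.04, adjusted p = 1.56e-30).

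The glucocorticoid receptor gene was highest in DU145, the line where those 3 factors were lowest. NR3C1 stood at 23.5 ± 1.02 CPM in 22Rv1, 102 ± 3.41 CPM in DU145 and 0.0572 ± 0.0601 CPM in C4-2B controls, the last from 4 reads in all. By pooled reads it was 353 times as high in 22Rv1 as in C4-2B (1819 against 4 reads, exact 95% counting interval 138 to 1300) and 1540 times as high in DU145 as in C4-2B (9179 against 4 reads, 600 to 5640). Between 22Rv1 and DU145 the log2 difference was -2.12 ± 0.06 (adjusted p = 9.56e-26). The factor of epithelial cells GRHL1 followed the order 22Rv1, C4-2B, DU145, with 19.2 ± 0.73, 13.5 ± 0.799 and 7.45 ± 0.957 CPM, and each step passed. GATA3 stood at 4.37 ± 0.793 CPM in 22Rv1, 1.67 ± 0.764 CPM in DU145 and 1.64 ± 0.149 CPM in C4-2B, and those last 2 lines did not differ beyond their spread (0.04 ± 0.29, adjusted p = 0.914).

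NCOA1 had an order of its own, with 154 ± 5.97 CPM in C4-2B, 41.5 ± 2.11 CPM in DU145 and 17.2 ± 2.31 CPM in 22Rv1. It was 8.80-fold higher in C4-2B than in 22Rv1 (3.14 ± 0.07, adjusted p = 3.53e-29), and in 22Rv1 knockdown libraries it reached 38.9 to 40.8 CPM on this scale, beside 39.2 to 43.4 CPM in DU145 controls. NCOA3 had the smallest ratio of highest to lowest mean over the lines, with 35.0 ± 2.43 CPM in C4-2B, 42.5 ± 3.37 CPM in 22Rv1 and 42.9 ± 1.88 CPM in DU145. It was lower in C4-2B than in 22Rv1 (-0.28 ± 0.07, adjusted p = 0.00042) and than in DU145 (-0.29 ± 0.07, adjusted p = 0.000244), a call lost with library totals (adjusted p = 0.0542). The difference between 22Rv1 and DU145 was -0.01 ± 0.07 (adjusted p = 0.908), which turned to 0.17 and passed with library totals (adjusted p = 0.0134). Across the 17152 genes of the fit, 78.4% differed in control level between C4-2B and 22Rv1, 83.1% between C4-2B and DU145 and 83.8% between 22Rv1 and DU145. Among the 8 genes, 8, 7 and 7 did in those pairs, so a difference between lines is what most genes show. The FOXA1 difference between C4-2B and 22Rv1 (0.12 ± 0.04, adjusted p = 0.0115) was lost without C4-2B control replicate 2 (adjusted p = 0.0522) or without 22Rv1 control replicate 3 (adjusted p = 0.0827).

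Levels of different genes are set side by side only per kilobase of exon, with exon lengths from GENCODE 29. In C4-2B controls the order was FOXA1 (96.6 CPM per kilobase), HOXB13 (60.8), GATA2 (36.4), NCOA1 (17.8), NCOA3 (4.17), GRHL1 (1.69), GATA3 (0.478) and NR3C1 (0.00623). In 22Rv1 controls HOXB13 led at 115.5 CPM per kilobase, before FOXA1 at 88.8 and GATA2 at 46.6, and the other 5 genes lay between 1.27 and 5.06. In DU145 controls FOXA1 led at 25.0 CPM per kilobase, NR3C1 came next at 11.2 and then GATA2 at 9.74, while NCOA1 at 4.80 and NCOA3 at 5.10 lay close together. The lineage factors FOXA1 and GATA2 were among the first 3 in every line, and NR3C1 was last in C4-2B but ahead of GATA2 in DU145.

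**Figure D3:**
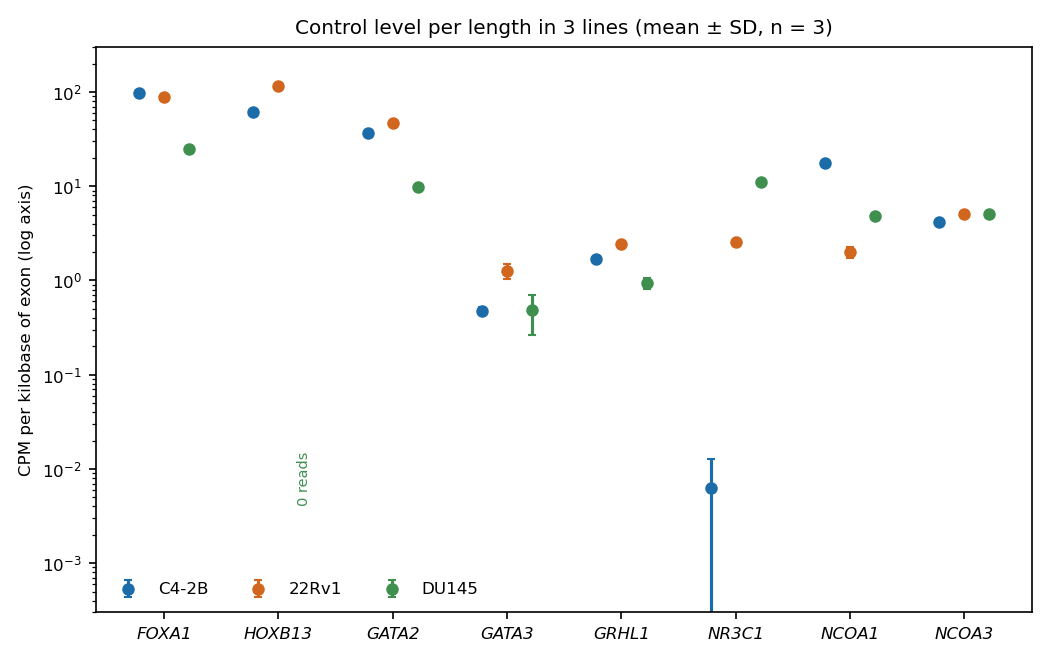
Level in control libraries of C4-2B, 22Rv1 and DU145, in CPM per kilobase of exon on a log axis, as mean of 3 libraries with SD bars (the SD of NR3C1 in C4-2B exceeds its mean, so its lower bar runs to the axis end). FOXA1 leads in C4-2B (96.6) and DU145 (25.0), HOXB13 leads in 22Rv1 (115.5) and has 0 reads in DU145, and NR3C1 spans the widest range of the genes with reads in all 3 lines.

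Whether the response to EMD knockdown itself differed between lines was tested as a difference of log2 fold changes in the fit of 18 libraries. Scaling over 18 libraries gives fold changes that differ somewhat from those of the single-line fits above. Pairs that share a line share its 6 libraries. NCOA1 differed most: its response in 22Rv1 exceeded that in DU145 by 1.38 ± 0.09 (adjusted p = 2.78e-14), and the difference of C4-2B less 22Rv1 was -1.32 ± 0.09 (adjusted p = 3.53e-14). NCOA3 differed in the same pairs, at 0.32 ± 0.09 for 22Rv1 less DU145 (adjusted p = 0.00314) and -0.26 ± 0.10 for C4-2B less 22Rv1 (adjusted p = 0.0221). That last call was lost with library totals (adjusted p = 0.105), without C4-2B control replicate 3 (0.0936), without C4-2B knockdown replicate 1 (0.08) or 3 (0.0547), and without 22Rv1 control replicate 2 (0.0694).

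GATA2 responded less in C4-2B than in DU145 (-0.55 ± 0.06, adjusted p = 3.37e-09) and less in 22Rv1 than in DU145 (-0.54 ± 0.06, adjusted p = 2.28e-09). Its responses in C4-2B and 22Rv1 differed by -0.01 ± 0.06 (adjusted p = 0.915). For GRHL1 the difference was -0.58 ± 0.17 for C4-2B less DU145 (adjusted p = 0.00461) and -0.86 ± 0.16 for 22Rv1 less DU145 (adjusted p = 2.71e-05). NR3C1 differed by -0.63 ± 0.09 between 22Rv1 and DU145 (adjusted p = 3.16e-07), and HOXB13 by -0.24 ± 0.06 between C4-2B and 22Rv1 (adjusted p = 0.00133). The FOXA1 response differed by -0.17 ± 0.06 between 22Rv1 and DU145 (adjusted p = 0.0214), and this call was lost without 22Rv1 control replicate 1 (0.0769), DU145 control replicate 1 (0.147) or DU145 knockdown replicate 2 (0.0773). In this fit the FOXA1 change was 0.10 in 22Rv1 (adjusted p = 0.0483) and 0.27 in DU145. The single-line fits gave 0.14 and 0.25, which lie closer together. In C4-2B less 22Rv1, the FOXA1 difference of 0.07 ± 0.06 (adjusted p = 0.347) passed only with library totals (0.15, adjusted p = 0.0166), and the GRHL1 difference of 0.28 ± 0.16 (adjusted p = 0.141) passed without C4-2B knockdown replicate 1 (adjusted p = 0.0494). GATA3 responses did not differ past the threshold in any pair, at 0.94 ± 0.42 for C4-2B less 22Rv1 (adjusted p = 0.0593), 0.41 ± 0.44 for C4-2B less DU145 (0.474) and -0.52 ± 0.41 for 22Rv1 less DU145 (0.285). The first of these passed with library totals (0.0445), without C4-2B knockdown replicate 1 (0.0416) or without DU145 control replicate 1 (0.0453), whose values enter the shared spread. In all, 3 of 7 genes differed for C4-2B less 22Rv1, 2 of 6 for C4-2B less DU145 and 6 of 7 for 22Rv1 less DU145, beside 56.1%, 45.7% and 55.6% of all genes. NR3C1 in C4-2B and HOXB13 in DU145 had too few reads for such a difference.

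**Figure D4:**
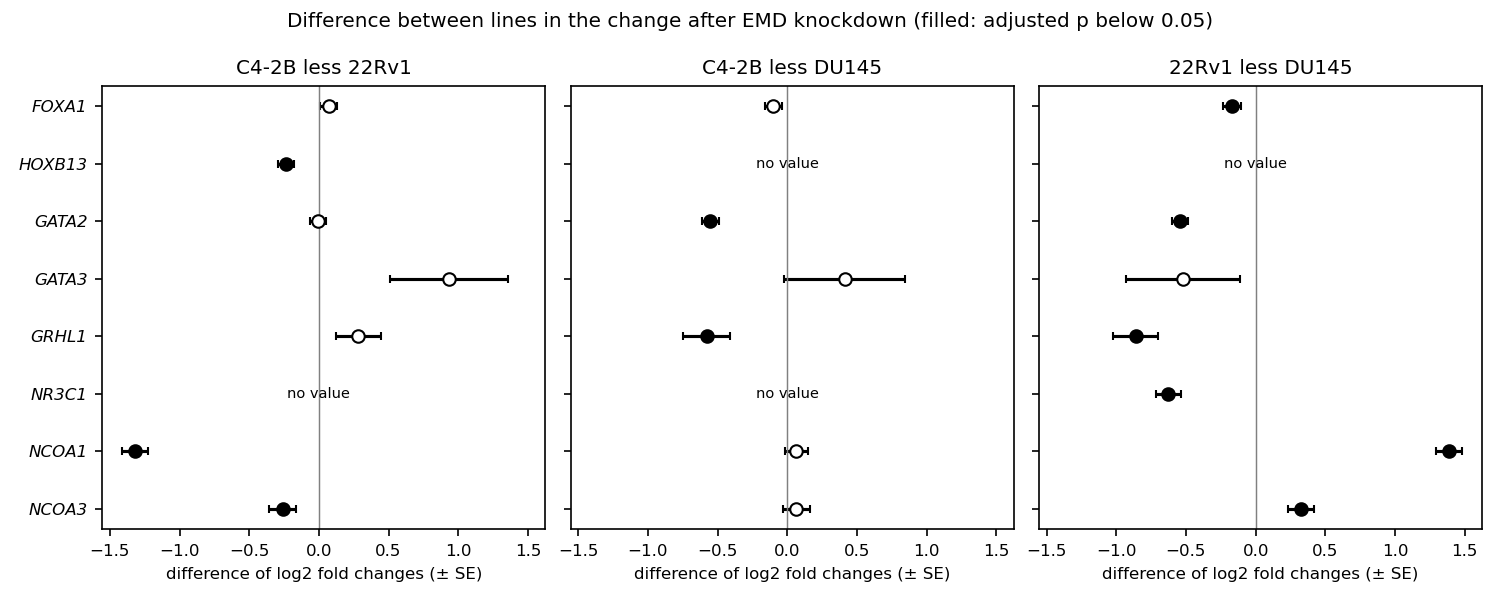
Difference between lines in the log2 fold change after EMD knockdown (horizontal axes, with SE bars) for C4-2B less 22Rv1, C4-2B less DU145 and 22Rv1 less DU145; filled points passed an adjusted p of 0.05. NCOA1 lies at -1.32 and 1.38 in the pairs that hold 22Rv1, and GATA2 and GRHL1 lie below 0 in both pairs that hold DU145.

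Other genes of the same pathways were counted in 6 lists. In 22Rv1, coactivators, Mediator subunits and chromatin partners rose as NCOA1 and NCOA3 did: of 29 tested genes 22 rose and 3 fell. Their median log2 fold change was 0.35, beside 33.5% of all genes higher, 34.3% lower and a median of -0.00381 (49.5% of called genes higher, 42% with library totals). Most of the 29 lay at 30 CPM or above, where genes of 22Rv1 rose more often: 49.8% of those between 30 and 100 CPM, 56.2% between 100 and 300 CPM and 51.4% at or above 300 CPM. The part of that level shift in the count was not tested. The acetyltransferase CREBBP had 113 ± 5.09 CPM in 22Rv1 knockdown and 55.9 ± 3.64 CPM in control libraries (1.01 ± 0.05, adjusted p = 1.43e-12), and the p160 coactivator NCOA2 had 89.5 ± 1.20 and 50.3 ± 2.41 CPM (0.83 ± 0.05, adjusted p = 1.38e-11). In C4-2B, 4 of 30 rose and 9 fell (median 0.01, with 19.4% of all genes higher and 22.3% lower), but 9 rose and 6 fell with library totals, and 7 rose without knockdown replicate 1. NCOA6 rose there (0.39 ± 0.05, adjusted p = 8.39e-07) and the Mediator subunit MED14 fell (-0.38 ± 0.07, adjusted p = 9.13e-05). In DU145, 8 of 30 rose and 10 fell (median -0.02, with 24.1% of all genes higher and 23.6% lower), and without control replicate 3 or knockdown replicate 1 only 6 fell. The acetyltransferase KAT2B had 6.01 ± 0.484 CPM in DU145 knockdown and 19.1 ± 0.927 CPM in control libraries (-1.68 ± 0.08, adjusted p = 1.37e-15), while NCOA2 rose there too (0.52 ± 0.05, adjusted p = 4.22e-09).

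Corepressors were mixed. The shares of all genes higher and lower were 19.4% and 22.3% in C4-2B, 33.5% and 34.3% in 22Rv1, and 24.1% and 23.6% in DU145. Of 16 corepressors tested, 4 rose and 6 fell in C4-2B, 5 rose and 4 fell in 22Rv1 (3 and 8 with library totals), and 8 rose and 5 fell in DU145 (5 rose without knockdown replicate 2). PIAS1, a SUMO ligase, fell in C4-2B (-0.71 ± 0.06, adjusted p = 2.45e-10), in 22Rv1 (-0.55 ± 0.06, adjusted p = 3.71e-08) and in DU145 (-0.15 ± 0.06, adjusted p = 0.0331). Related lineage transcription factors mostly fell in 22Rv1, where 6 of 33 rose and 23 fell with a median of -1.02. Of these, FOXA3 had 0.248 ± 0.0712 CPM in knockdown and 2.47 ± 0.68 CPM in control libraries, while the epithelial ETS factor SPDEF rose to 131 ± 1.12 CPM in knockdown libraries, against 50.2 ± 2.42 CPM in controls. Genes of low level fell together in 22Rv1, with a median of -0.48 below 2 CPM and -0.33 between 2 and 10 CPM, and the part of that shift in this count was not tested. Among the 23 that fell were HOXB2 to HOXB9, neighbours in 1 gene cluster, with control means from 0.880 to 5.50 CPM. In C4-2B, 5 of 27 such factors rose and 9 fell (8 and 8 with library totals, and 3 rose without knockdown replicate 2), among them SOX9 at 14.8 ± 1.11 CPM in knockdown and 40.8 ± 2.07 CPM in control libraries (-1.46 ± 0.09, adjusted p = 5.77e-13). In DU145, 8 of 33 rose and 14 fell, and NFIB, a nuclear factor I protein, had 6.35 ± 0.854 CPM in knockdown and 71.7 ± 1.41 CPM in control libraries (-3.49 ± 0.07, adjusted p = 6.61e-24).

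Of the other nuclear receptors, 12 of 27 rose and 4 fell in C4-2B (2 fell without control replicate 3), 8 of 31 rose and 18 fell in 22Rv1, and 10 of 31 rose and 6 fell in DU145, with medians of 0.12, -0.64 and 0.11. Of all genes, 19.4% were higher and 22.3% lower in C4-2B, 33.5% and 34.3% in 22Rv1, and 24.1% and 23.6% in DU145. NR2F1, an orphan receptor, had 24.9 ± 3.43 CPM in C4-2B knockdown and 6.72 ± 0.837 CPM in C4-2B control libraries (1.89 ± 0.13, adjusted p = 6.3e-12). It rose in 22Rv1 (0.81 ± 0.08, adjusted p = 2.36e-08) and fell in DU145 (-0.52 ± 0.15, adjusted p = 0.00591). In DU145 the lipid-sensing receptor PPARD had 24.5 ± 1.14 CPM in knockdown and 124.7 ± 8.21 CPM in control libraries (-2.35 ± 0.06, adjusted p = 2.66e-22), and the progesterone receptor gene PGR had 10.4 ± 0.502 and 0.722 ± 0.42 CPM (4.00 ± 0.22, adjusted p = 1.25e-08).

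In 22Rv1, genes known to be induced by the glucocorticoid receptor mostly fell: 16 of 19 fell and 1 rose, with a median of -0.94. Of all genes there, 34.3% were lower and 33.5% higher. NR3C1 itself fell in 22Rv1 and rose in DU145, and its part in the counts of this list was not tested. PDK4, a kinase that restrains pyruvate use, had 146 ± 3.16 CPM in 22Rv1 knockdown and 605 ± 10.1 CPM in control libraries (-2.05 ± 0.03, adjusted p = 6.65e-20), and KLF6 was the 1 that rose (0.70 ± 0.05, adjusted p = 3.89e-11). In DU145, 7 of 19 rose and 5 fell (median 0.20), beside 24.1% of all genes higher and 23.6% lower. The circadian gene PER1 rose there (1.14 ± 0.10, adjusted p = 1.74e-10) and the kinase gene SGK1 fell (-1.21 ± 0.10, adjusted p = 3.53e-11). In C4-2B, which had next to no NR3C1 reads, 4 of 17 rose and 6 fell (median 0.01), beside 19.4% of all genes higher and 22.3% lower, with 6 and 5 under library totals, and 2 rose without control replicate 3 and also in the fit of 18 libraries. FKBP5, which is in this list and among the chaperones, fell in all 3 lines, by -0.49 ± 0.05 in C4-2B (adjusted p = 4.77e-09), -0.99 ± 0.04 in 22Rv1 (adjusted p = 9.69e-15) and -0.40 ± 0.05 in DU145 (adjusted p = 5.16e-08), and the genes that fell in all 3 lines were 2.32% of those tested in all 3.

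Of the chaperones that hold steroid receptors, more rose than fell in 22Rv1 and in DU145. Of 16 tested, 13 rose and 1 fell in 22Rv1 (9 and 2 with library totals), 10 rose and 1 fell in DU145, where without knockdown replicate 2 there were 3 that fell, and 3 rose and 8 fell in C4-2B (5 and 7 with library totals), with medians of 0.23, 0.24 and -0.09. Of all genes, 33.5% were higher in 22Rv1, 24.1% in DU145 and 19.4% in C4-2B, where 22.3% were lower. Most of the 16 lay at 100 CPM or above in 22Rv1, where 56.2% of genes between 100 and 300 CPM rose and 51.4% of those at or above 300 CPM, and the part of that level shift was not tested. The heat shock cognate HSPA8 had 1459 ± 16.9 CPM in 22Rv1 knockdown and 877 ± 6.28 CPM in control libraries (0.73 ± 0.03, adjusted p = 1.54e-14), and the cochaperone BAG1 rose there as well (0.95 ± 0.04, adjusted p = 3.58e-14). DNAJB1, a J-domain cochaperone, rose in DU145 (0.96 ± 0.05, adjusted p = 6.87e-15), in C4-2B (0.61 ± 0.04, adjusted p = 8.8e-12) and in 22Rv1 (0.24 ± 0.04, adjusted p = 5.94e-05). PTGES3, which encodes the p23 cochaperone, fell in C4-2B (-0.45 ± 0.04, adjusted p = 2.66e-10). These counts describe the lists and were not tested as sets.

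**Figure D5:**
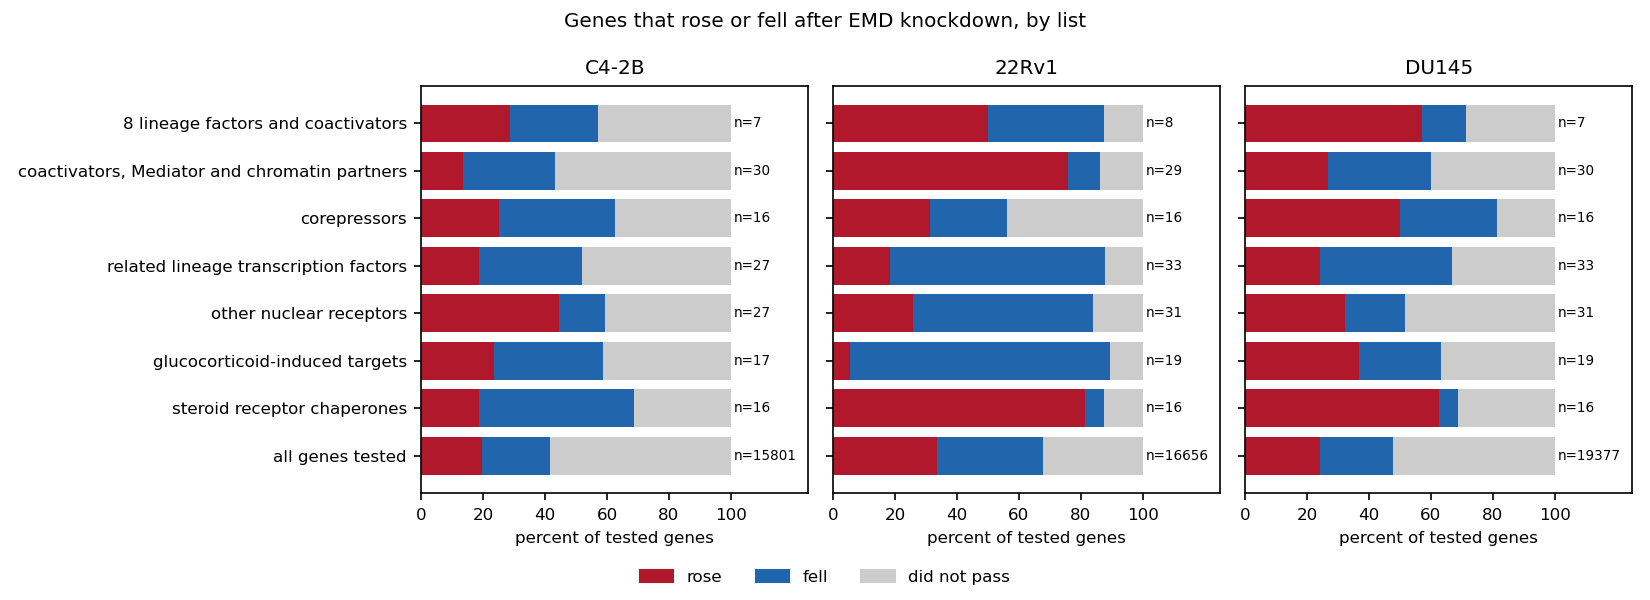
Share of tested genes that rose, fell or did not pass after EMD knockdown (horizontal axes, percent of tested genes, with the number tested at the right) for the 8 genes, the 6 lists and all genes in each line. In 22Rv1 coactivators and chaperones are mostly in the rising part (22 of 29 and 13 of 16) and glucocorticoid-induced targets mostly in the falling part (16 of 19), beside 33.5% of all genes higher and 34.3% lower.

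The genes closest to each member across the 6 groups were found by the root-mean-square difference of group means of log2 CPM, centred per gene, over 17151 genes. NCOA3 lay nearest to DIABLO (0.0429) and GLOD4 (0.0542), and GRHL1 to SDHAF1 (0.0475) and RSBN1 (0.0797). GATA2 lay nearest to P3H4 (0.0623) and DYM (0.104), and FOXA1 to GRTP1 (0.0652) and GCHFR (0.0658). GATA3 was next to SEPTIN1 (0.159) and TEAD3 (0.196), and NCOA1 next to LINC00167 (0.171) and SAMD15 (0.22). HOXB13 and NR3C1, which are at or near 0 in 1 line, had no gene so close: KLK4 (0.43) and CTAG2 (0.566) were nearest to HOXB13, and PM20D2 (0.454) and TGFB1 (0.464) to NR3C1. The median distance of all genes was 0.783 for NCOA3 and 5.55 for HOXB13. With 6 group means these are descriptions of likeness only.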

How the data were processed

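RNA-seq of 18 libraries was used. The deposited tables hold expected counts, already whole numbers, with 1 value per gene and library. Per the submitters' processing notes, the authors used STAR, RSEM 1.3.1 and the GRCh38 genome. The annotation release, the rounding and the strandedness are not given in the sources used here. From the DU145 table, 92 spike-in entries (1 to 6 reads a library) and 30 second copies of genes were left out. Genes with few reads are already absent from the C4-2B (22360 genes) and 22Rv1 (25716 genes) tables, against 37256 in DU145.

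The 6 libraries of a line were tested together with the robust quasi-likelihood F test of edgeR 4.0.16 (R 4.3.3), after filterByExpr with a minimum count of 10 and a minimum total of 15 and with TMM factors. Benjamini-Hochberg adjustment ran over every gene tested in the line, and 0.05 was the threshold. An SE is the size of the log2 fold change divided by the square root of F. Levels are TMM-scaled CPM. Control levels and responses were compared between lines as contrasts in 1 fit of 18 libraries with 1 coefficient per group, on the genes found in all 3 tables. Library totals, RLE scaling, no filter, DESeq2 1.42.0, a replicate block and leaving out each library were tried. The scripts were tested on simulated data. Intervals and limits cover counting error only, since reads are not independent molecules; deeper libraries have less counting error at a given level.

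The 8 genes and the lists were chosen with earlier results of these data known. Named are all 8, from each list at most the 2 called genes with the largest change per direction and line, and the 2 genes nearest to each of the 8. Some genes that this rule or the marker lists name are not reported here. Marker genes and overlapping neighbours were named beside results they touch. Of these, KLK3, FOLH1, KRT8, KRT18, EPCAM, NGFR, DST, VWF, CD68, HBA1, ITGAM, CD14 and LYZ were chosen after their values were seen. Beyond the rule, HOXB2 to HOXB9 were also named after their values were seen. Gene places and exon lengths come from GENCODE 29, sequences from RefSeq.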

Additional observations from a re-analysis of the deposited data

Results flagged for a closer look

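In the test of the difference itself, the response to EMD knockdown differed for 3 of 7 genes in C4-2B less 22Rv1, 2 of 6 in C4-2B less DU145 and 6 of 7 in 22Rv1 less DU145, beside 56.1%, 45.7% and 55.6% of all genes. NCOA1 stood out in the pairs with 22Rv1, at 1.38 for 22Rv1 less DU145 and -1.32 for C4-2B less 22Rv1 on the log2 scale. NCOA3 differed by 0.32 for 22Rv1 less DU145 and by -0.26 for C4-2B less 22Rv1. GATA2 differed by -0.55 for C4-2B less DU145 and by -0.54 for 22Rv1 less DU145. GRHL1 differed by -0.58 for C4-2B less DU145 and by -0.86 for 22Rv1 less DU145. NR3C1 differed by -0.63 and FOXA1 by -0.17 for 22Rv1 less DU145, and HOXB13 by -0.24 for C4-2B less 22Rv1. All are edgeR interaction contrasts in the fit of 18 libraries, past an adjusted p of 0.05. The FOXA1 call was lost without 22Rv1 control replicate 1 (adjusted p = 0.0769), DU145 control replicate 1 (0.147) or DU145 knockdown replicate 2 (0.0773). The NCOA3 call for C4-2B less 22Rv1 was lost without C4-2B control replicate 3 (0.0936), C4-2B knockdown replicate 1 (0.08) or 3 (0.0547), or 22Rv1 control replicate 2 (0.0694), and with library totals (-0.18, adjusted p = 0.105). Line, batch label, table and medium cannot be told apart in any of them.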

How the results depend on the processing

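Over 1276 alternatives for single genes, 1224 kept direction and side of the threshold, 23 lost a call, 11 gained one and 18 changed sign. For comparisons between lines, these include runs without a library that is not in the comparison. Such runs act only through the shared spread and scaling, so the number kept overstates how stable these results are. The number of the 8 genes called in C4-2B was 4 and ranged from 2 to 4 when 1 library was left out. The sign changes were all of values near 0 that had not passed. With library totals GRHL1 in C4-2B was 0.0159, HOXB13 in 22Rv1 -0.0145, NCOA3 in control 22Rv1 against DU145 0.17 and the GATA2 response C4-2B less 22Rv1 0.0723. GATA3 in control C4-2B against DU145 was -0.00817 with RLE and -0.00965 with DESeq2. With 1 library left out, GRHL1 in C4-2B ran from -0.17 to 0.0619, NCOA3 in control 22Rv1 against DU145 from -0.0500 to 0.0523, GATA3 in control C4-2B against DU145 from -0.19 to 0.42, the GATA2 response C4-2B less 22Rv1 from -0.0383 to 0.0247 and the NCOA3 response C4-2B less DU145 from -0.0198 to 0.12. The causes were not tested. Library totals shift the median of all genes by 0.15 for control C4-2B against DU145 and by 0.181 for 22Rv1 against DU145 on the log2 scale. Replicate numbers are not stated to pair the samples. Correlations of same-numbered deviations from group means ran from -0.268 to 0.127, which cannot settle pairing with 3 libraries a group. Only control 3 and knockdown 3 of C4-2B correlated best with each other among the same-numbered pairs. With a replicate block, 4, 7 and 6 of the genes were called in C4-2B, 22Rv1 and DU145, the change being GATA3 in DU145 (adjusted p = 0.0356), and 6623, 11146 and 9860 of all genes. Too few reads of the gene kept NR3C1 in C4-2B (0 to 3 reads a library) and HOXB13 in DU145 (0 or 1 read) from being tested. GATA3 rests on 16 to 122 reads a library.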

Other observations

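Reads of some neighbours that overlap the 8 genes also differed between the arms. SULF2, a sulfatase gene on the strand opposite NCOA3, had 29 to 44 reads in C4-2B knockdown and 0 to 6 reads in C4-2B control libraries (adjusted p = 7.09e-06), and 18 to 27 reads in 22Rv1 knockdown and 32 to 79 reads in 22Rv1 control libraries (adjusted p = 0.00399, edgeR). GATA3-AS1, on the strand opposite GATA3, had 0 to 2 reads in 22Rv1 knockdown and 3 to 9 reads in 22Rv1 control libraries. In DU145 it had 1 to 2 reads in knockdown and 0 reads in control libraries. It was not tested in either line, so no change is claimed for it.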
